A study of Mus musculus with 14 samples.

Results

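Scx, Mkx, Tnmd, Fmod, Kera, Thbs4, Gdf5 and Prg4 are 8 genes of the tendon, the ligament and the joint. They were taken by symbol from a table of 56691 gene rows, and each symbol matched 1 row. All 8 were among the 21619 genes with enough reads to be tested. The libraries came from whole paws of newborn mice that lack keratin 9 or are wild type. Keratin 9, encoded by Krt9, is an intermediate filament protein of the thick epidermis of palms and soles. The 4 groups were Krt9-/- paws on postnatal day 3 (P3 Krt9 null, n = 3), WT paws on postnatal day 3 (P3 WT, n = 5), Krt9-/- paws on postnatal day 0 (P0 Krt9 null, n = 2) and WT paws on postnatal day 0 (P0 WT, n = 4). No treatment, transgene or Cre driver is given in the labels, and the sources used here do not give the strain, the limb, the deleted part of Krt9 or the number of animals behind a library. Where nothing says that libraries came from separate animals, p-values measure the spread between these libraries.

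Tendons join muscle to bone and are built by tenocytes, fibroblasts that lay down parallel collagen fibres. The transcription factors scleraxis (Scx) and mohawk (Mkx) act in the tenocyte lineage, and tenomodulin (Tnmd) is a membrane protein that marks more mature tenocytes. Fibromodulin (Fmod) and keratocan (Kera) are small leucine-rich proteoglycans that bind collagen, and thrombospondin 4 (Thbs4) is a secreted glycoprotein of tendon and muscle matrix. At the joint, Gdf5 encodes a ligand of the bone morphogenetic protein (BMP) family that marks the interzone where a joint forms, and Prg4 encodes lubricin, the lubricant made by superficial cartilage and synovial lining cells.

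Each library held 28947715 to 41004173 counted reads. Levels are in CPM, the share of a library's counts that falls on a gene, in the unit commonly used for read counts, and adjusted between libraries by the trimmed mean of M-values method. Krt9 stood at 25.2, 7.74 and 11.5 CPM in P3 Krt9 null paws, against 32.9 to 83.0 CPM in the 5 P3 WT libraries. On P0 it stood at 6.08 and 5.32 CPM in Krt9 null paws, within the range of 2.09 to 7.61 CPM in the 4 P0 WT libraries, so on that day Krt9 did not separate the labels. The 4th P0 WT library, labelled female, had Xist at 0.181 CPM, against 783 to 900.2 CPM in the other 6 libraries labelled female. Its Ddx3y stood at 0.155 CPM, against 0 to 0.101 CPM in those 6 and 69.7 to 128.2 CPM in the 7 labelled male. Leaving the 4th P0 WT library out changed the call of 1 of 56 fold changes, those of the 8 genes in 7 comparisons. That 1 was Scx between the column runs described next. The values of Scx, Mkx and Tnmd without that library are given below. The columns of the deposited table stand in 2 alphabetical runs, of which the first holds 8 libraries and the second 6. The labels do not say that a run is a batch, but the 2 runs differed in 23.2% of the genes tested. The difference between the runs is therefore given for each of the 8 genes. The main fit held no term for the run. The first run holds 1 P3 Krt9 null, 3 P3 WT, 1 P0 Krt9 null and 3 P0 WT libraries, and the second holds 2 P3 Krt9 null, 2 P3 WT, 1 P0 Krt9 null and 1 P0 WT library. That single P0 WT library of the second run is the 4th one, whose Xist level goes against its label while its Ddx3y level does not. A difference within a run is therefore given as a value with no test where an arm of it is a single library.

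Per kilobase of exon, Tnmd was the most abundant of the 8 genes, at 259.7 ± 50.8 CPM per kb over the 14 libraries (mean and SD). Kera at 143 ± 19.8 and Fmod at 136 ± 54.2 CPM per kb followed and did not differ beyond their spread. Thbs4 averaged 83.5 ± 22.1, Prg4 31.1 ± 18.8 and Scx 13.6 ± 2.43 CPM per kb, and Prg4 overlapped with its neighbours on either side of that order. Mkx at 5.60 ± 0.952 and Gdf5 at 1.09 ± 0.456 CPM per kb were the lowest. The transcription factors and the growth factor stood below the structural proteins on this scale. Between libraries, Prg4 varied by 6.60-fold from the lowest to the highest, Fmod by 4.16-fold, Gdf5 by 4.14-fold and Thbs4 by 2.39-fold, whereas Tnmd, Mkx, Scx and Kera varied by 1.55-fold to 1.81-fold. The plot of CPM by library and group shows these spreads.

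**Figure D1:**
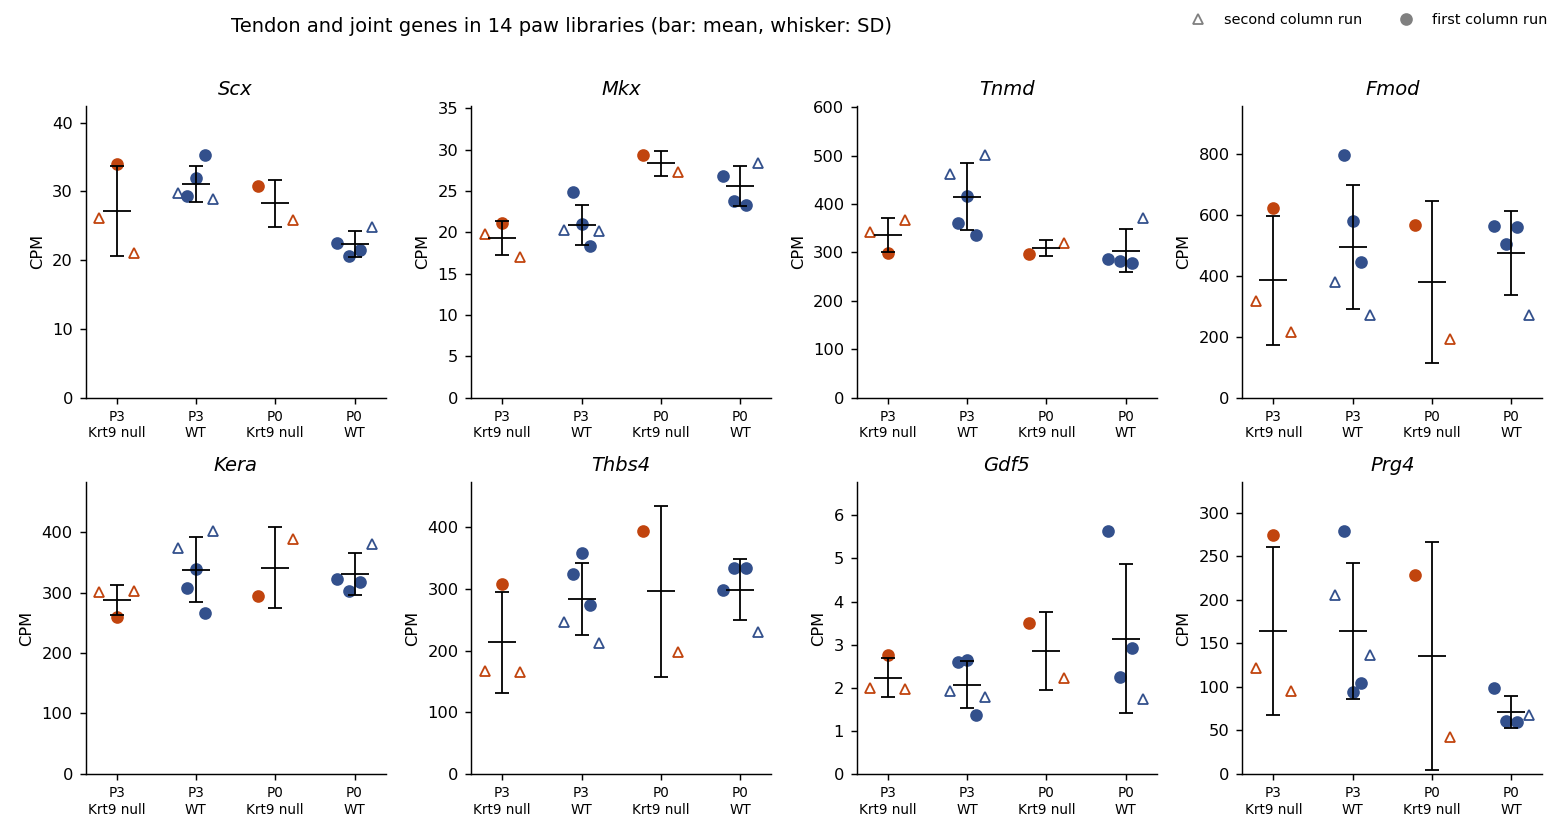
CPM of the 8 genes in each library (vertical axes start at 0), with Krt9 null paws in orange, WT paws in blue, open triangles for the second column run and filled circles for the first. The bar is the group mean and the whisker the SD. Scx and Tnmd stand higher in P3 WT than in P0 WT paws, and the triangles of Fmod and Thbs4 lie below the circles in every group.

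Between P0 and P3, Scx and Tnmd rose in WT paws, by 1.39-fold and 1.38-fold, and the other 6 genes did not pass the test. In bulk paws, more tendon cells and more RNA per tendon cell cannot be told apart. These were 2 of 8 genes called higher and 0 lower, where 16.6% of all genes tested were called, 8.49% higher and 8.07% lower. Genes under an adjusted p of 0.05 in edgeR's quasi-likelihood test are referred to as called. The median log2 fold change of the 8 genes was 0.01, beside -0.01 over all genes. With fewer Krt9 null libraries, 0 of the 8 genes were called between the days in that genotype, where 0.768% of all genes were called, 0.338% higher and 0.43% lower. There 1 of the 8 genes, Mkx, was under an unadjusted p of 0.05, and DESeq2 called the same gene.

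Scx, the earliest of the tendon transcription factors, had 26.2, 34.0 and 21.0 CPM in P3 Krt9 null paws. It had 29.7, 29.3, 32.0, 35.3 and 28.9 CPM in the P3 WT libraries and 30.7 and 25.8 CPM in the P0 Krt9 null libraries. In P0 WT paws it had 22.5, 20.5, 21.4 and 24.8 CPM. All 5 P3 WT values were above all 4 P0 WT values, and P0 WT paws were the group with the lowest mean. Scx was the 1 of 8 genes with no overlap between the days in WT, and the share of all genes without overlap was not computed. In WT, the difference of P3 over P0 was 1.39-fold, with a log2 fold change of 0.48 ± 0.14 (SE, edgeR, adjusted p = 0.0315). Without the 4th P0 WT library it was 0.53 (edgeR, adjusted p = 0.0277).

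Within the first column run, with 3 libraries a day, the Scx difference between the days was 0.61 on the log2 scale (edgeR, adjusted p = 0.00126). In the second run it was 0.17, with the 4th P0 WT library alone for P0, so whether the runs differ cannot be read from it. With the column run as a term it was 0.50 (edgeR, adjusted p = 0.00692). The Scx difference of P3 over P0 in Krt9 null paws was not called, with a log2 fold change of -0.07 ± 0.19 (SE, edgeR, adjusted p = 0.906) and an interval of 2 SE from -0.44 to 0.31. The test of the difference between the genotypes, the interaction, gave -0.54 ± 0.23 for Scx (SE, edgeR), with an unadjusted p of 0.0349 and an adjusted p of 0.63. On P0 both Krt9 null values lay above all 4 WT values, at a mean of 28.3 ± 3.44 against 22.3 ± 1.83 CPM (SD). Of the 8 genes, 1 had no overlap in that comparison, and the share over all genes was not computed. The log2 fold change of Scx was 0.34 ± 0.18 and was not called (SE, edgeR, adjusted p = 0.836), and 0.40 without the 4th P0 WT library (edgeR, adjusted p = 0.43). It was 0.53 in the first column run, with 1 Krt9 null library against 3 WT, and 0.07 in the second, with 1 library of each genotype.

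In the annotation, Scx lies within an intron of Bop1, a ribosome biogenesis gene on the opposite strand, and shares no exon bases with it. Whether the counting used the strand is not stated in the sources at hand. Bop1 stood at 53.3 ± 4.03 CPM in P3 WT and 41.2 ± 5.49 CPM in P0 WT paws (SD), a log2 fold change of 0.35 that was not called (edgeR, adjusted p = 0.103). Bop1 differed by 0.41 between the days in Krt9 null paws (edgeR, adjusted p = 0.327), where Scx differed by -0.07. The correlation of the log2 levels of Bop1 and Scx over the 14 libraries was 0.557, given as a description. The part of reads from one gene counted for the other was not tested.

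Mkx, a homeobox transcription factor of tendon maturation, had 19.8, 21.1 and 17.0 CPM in P3 Krt9 null paws and 20.3, 24.8, 20.9, 18.3 and 20.2 CPM in P3 WT paws. On P0 it had 29.4 and 27.2 CPM in Krt9 null paws and 26.8, 23.8, 23.3 and 28.4 CPM in WT paws. The mean was lower on P3 in both genotypes, at 19.3 against 28.3 CPM in Krt9 null and 20.9 against 25.6 CPM in WT paws. In Krt9 null paws no P3 value reached the P0 values. That held for 1 of 8 genes, and the share over all genes was not computed. The log2 fold change of Mkx was -0.54 ± 0.16 (SE, edgeR, adjusted p = 0.13). That difference was called with the column run as a term, at -0.54 (edgeR, adjusted p = 0.0487), and by DESeq2, at -0.53 (adjusted p = 0.0486). In WT the groups overlapped and the log2 fold change was -0.30 ± 0.12 (SE, edgeR, adjusted p = 0.1), and -0.23 without the 4th P0 WT library (edgeR, adjusted p = 0.205). In the first column run the WT difference was -0.18 (edgeR, adjusted p = 0.295), and in the second, with 1 P0 WT library, it was -0.53. The Krt9 null difference was -0.25 in the first run, between 1 library of each day, and -0.62 in the second, with 1 P0 library. With the epidermis marker level as a covariate the WT difference was -0.40 and was called (edgeR, adjusted p = 0.04). Mkx shares 201 exon bases with another annotated transcript on its own strand.

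Tnmd, whose expression depends on Scx in mouse tendons, had 343, 298 and 368 CPM in P3 Krt9 null paws. It had 461, 361, 416, 337 and 502 CPM in P3 WT paws and 297 and 320.0 CPM in P0 Krt9 null paws. In P0 WT paws it had 286, 282, 277 and 371 CPM. The 4th P0 WT library lay among the P3 WT values, and the other 3 were below all of them. The difference of P3 over P0 in WT was 1.38-fold, with a log2 fold change of 0.46 ± 0.14 (SE, edgeR, adjusted p = 0.0366), and 0.56 without that library (edgeR, adjusted p = 0.0162).

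Within the first column run, which leaves that library out, Tnmd differed between the days in WT by 0.43 on the log2 scale (edgeR, adjusted p = 0.00218). In the second run, where that library alone stands for P0 WT, the value was 0.44. In Krt9 null paws its log2 fold change of P3 over P0 was 0.12 ± 0.19 (SE, edgeR, adjusted p = 0.824), and the interaction was -0.35 ± 0.23 (SE, edgeR, adjusted p = 0.773). On P3 it averaged 336 ± 35.2 CPM in Krt9 null and 416 ± 68.6 CPM in WT paws (SD), a log2 fold change of -0.32 ± 0.15 that was not called (edgeR, adjusted p = 0.756). That genotype difference was -0.24 in the first column run, with 1 Krt9 null library against 3 WT. In the second, with 2 against 2, it was -0.43 (edgeR, adjusted p = 5.58e-06), where the fit of 6 libraries left 1 residual degree of freedom.

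The calls of Scx and Tnmd in WT were close to the threshold and did not hold under every setting. Without the 1st, the 2nd or the 3rd P0 WT library, or without the 3rd P3 WT library, 0 of the 8 genes were called, with Scx between 0.45 and 0.51 and Tnmd between 0.43 and 0.46 on the log2 scale. Scx lost its call without the 2nd or the 4th P3 WT library and Tnmd without the 1st or the 5th. With the 2 males of P3 WT litter number 2 summed, the adjusted p was 0.0513 for Scx and 0.0502 for Tnmd (edgeR). With the litter number of the labels as a fixed replicate block, Scx was at 0.53 (edgeR, adjusted p = 0.481) and Tnmd at 0.56 (edgeR, adjusted p = 0.46), and the fit left 2 residual degrees of freedom. The litter number is a digit read from the sample titles, which do not use the word litter. Whether a number that recurs on both days marks the same litter is not stated. With litter as a random block in limma, Scx was at 0.46 (adjusted p = 0.0393) and Tnmd at 0.45 (adjusted p = 0.0405). The direction was higher on P3 under all of these settings.

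Markers of skeletal muscle, to which tendons attach, fell in WT between P0 and P3. Of 10 muscle markers 7 were called lower and 0 higher, where 8.07% of all genes were called lower and 8.49% higher. The median log2 fold change of the markers was -1.24. Their summed level was 1547 to 3427 CPM in P3 Krt9 null and 2125 to 3946 CPM in P3 WT paws. It was 3889 to 4680 CPM in P0 Krt9 null and 5002 to 14551 CPM in P0 WT paws. With the muscle marker level as a covariate, Scx differed by 0.52 between the days in WT (edgeR, adjusted p = 0.243) and Tnmd by 0.25 (edgeR, adjusted p = 0.561). In that fit 75 genes in all were called. The muscle level did not overlap between the days in WT, so that fit cannot separate muscle from day. With the epidermis marker level as a covariate, Scx differed by 0.33 (edgeR, adjusted p = 0.106) and Tnmd by 0.51 (edgeR, adjusted p = 0.032).

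Fewer markers of the other tissues were called between the days in WT, where 8.49% of all genes were called higher and 8.07% lower. Cartilage markers had 0 of 10 called. Osteoblast markers had 2 of 8 higher and dermal fibroblast markers 3 of 8 higher and 1 lower. Of 10 epidermis markers 1 was lower, of 8 endothelium markers 1 was lower, and 2 of 7 red cell markers and 2 of 6 Schwann cell markers were higher. No marker of any of the 8 lists was at 0 in any library. The part of these tissues in the differences of Scx and Tnmd was not tested beyond the epidermis covariate, as the muscle covariate cannot be separated from the day.

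Fmod, a proteoglycan that guides collagen fibril assembly, had 316, 623 and 215 CPM in P3 Krt9 null paws and 380.3, 797, 579.8, 445 and 271 CPM in P3 WT paws. On P0 it had 568 and 192 CPM in Krt9 null paws and 564, 503, 559 and 269.6 CPM in WT paws. Each group spanned at least a doubling of the level, and the groups overlapped widely. In every group the values of the second column run were below those of the first. The log2 fold change of P3 over P0 in WT was -0.01 ± 0.37 (SE, edgeR, adjusted p = 0.99), and its interval of 2 SE ran from -0.75 to 0.73. Differences within that interval could not be told apart by this fit, which held no term for the column run.

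Kera, the keratan sulphate proteoglycan best known from the cornea, had 301, 259.5 and 304 CPM in P3 Krt9 null paws and 374, 309, 339, 266 and 403 CPM in P3 WT paws. On P0 it had 294 and 389 CPM in Krt9 null paws and 323, 303, 318 and 381 CPM in WT paws. It had the smallest ratio of highest to lowest library of the 8 genes. The difference of P3 over P0 in WT was 0.04 ± 0.14 on the log2 scale (SE, edgeR, adjusted p = 0.891), with an interval of 2 SE from -0.24 to 0.31, narrower than that of Fmod.

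Thbs4 had 166, 308 and 165 CPM in P3 Krt9 null paws and 246, 325, 358, 274 and 212 CPM in P3 WT paws. On P0 it had 394 and 198 CPM in Krt9 null paws and 298, 334, 333 and 229 CPM in WT paws. The lowest values lay in P3 Krt9 null paws, at 213 ± 82.2 CPM against 283 ± 58.8 CPM in P3 WT (SD), but the groups overlapped. The log2 fold change of -0.32 ± 0.26 was not called (SE, edgeR, adjusted p = 0.924). The values of 166 and 165 CPM in P3 Krt9 null and of 246 and 212 CPM in P3 WT paws came from the second column run. Thbs4 was lower in that run. Between the days in WT it differed by -0.11 ± 0.23 (SE, edgeR, adjusted p = 0.802).

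Gdf5 had 1.98, 2.75 and 1.97 CPM in P3 Krt9 null paws and 1.93, 2.60, 2.63, 1.36 and 1.79 CPM in P3 WT paws. On P0 it had 3.50 and 2.22 CPM in Krt9 null paws and 5.64, 2.26, 2.93 and 1.73 CPM in WT paws. These values rest on 41 to 216 reads per library, the fewest of the 8 genes. The mean was 2.06 ± 0.547 CPM in P3 WT and 3.14 ± 1.74 CPM in P0 WT paws (SD), a log2 fold change of -0.62 ± 0.28 that was not called (edgeR, adjusted p = 0.148), and 1 P0 WT library held the highest value. Exons of Gdf5 share 936 bases with Gm15557 on the opposite strand, which was at 0 in 13 libraries and at 0.129 CPM in the other.

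Prg4 had the largest difference between the days in WT and the widest spread. It had 121, 274 and 95.5 CPM in P3 Krt9 null paws and 206, 279, 93.6, 104 and 136 CPM in P3 WT paws. On P0 it had 228 and 42.3 CPM in Krt9 null paws and 98.7, 60.6, 59.2 and 67.0 CPM in WT paws. P0 WT paws had the lowest mean of the groups, and the lowest P3 WT value lay just under the highest P0 WT value. The difference of P3 over P0 in WT was 2.15-fold, with a log2 fold change of 1.11 ± 0.49 (SE, edgeR, adjusted p = 0.153), and in Krt9 null paws it was 0.63 ± 0.70 (SE, edgeR, adjusted p = 0.725). In the first column run the WT difference was 1.12 (edgeR, adjusted p = 0.269). In the second it was 1.10, with 2 P3 libraries against the single P0 WT library at 67.0 CPM. With no filter on low counts, and with only the groups compared in the fit, the WT difference of Prg4 was called.

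Libraries with the same litter number could differ widely in Prg4. The 2nd and 3rd P3 WT libraries, males of litter number 2, had 279 and 93.6 CPM. Under litter number 1 on P0, Prg4 stood at 228 CPM in the Krt9 null male and 98.7 CPM in the WT male. The genotype difference of Prg4 had opposite signs in the 2 column runs, and in all but the P3 libraries of the second run it rests on a single Krt9 null library. On P0 it was 1.45 on the log2 scale in the first run, with 1 Krt9 null library against 3 WT, and -0.65 in the second, with 1 against 1. On P3 it was 1.24 in the first run, with 1 Krt9 null library against 3 WT, and -0.63 in the second, with 2 against 2. No direction is given for Prg4 in Krt9 null paws, since it was not called over all libraries and the values by run rest on so few. Exons of Prg4 share 204 bases with Tpr, a nuclear pore gene on the opposite strand. Tpr differed by -0.12 between the days in WT (edgeR, adjusted p = 0.532).

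None of the tendon and joint genes was called between the genotypes. In Krt9 null against WT, 0 of 8 were called on P3 and 0 of 8 on P0, where 0.00463% of all genes tested were called on each day, and 0 had an unadjusted p under 0.05 on either day in edgeR. Averaged over the days 0 of 8 were called, beside 0.00925% of all genes, and for the interaction 0 of 8, beside 0% of all genes, with 1 of 8, Scx, under an unadjusted p of 0.05. DESeq2 and limma called 0 of 8 in each of these comparisons. On P3 the log2 fold changes ran from -0.32 for Tnmd to 0.34 for Gdf5, and on P0 from -0.42 for Fmod to 0.74 for Prg4. The widths of the intervals differed between genes: on P3, 2 SE either side ran from -0.36 to 0.17 for Mkx and from -0.82 to 1.34 for Prg4. The comparisons between the days and those between the genotypes share their groups, and the plot of fitted differences sets them side by side.

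**Figure D2:**
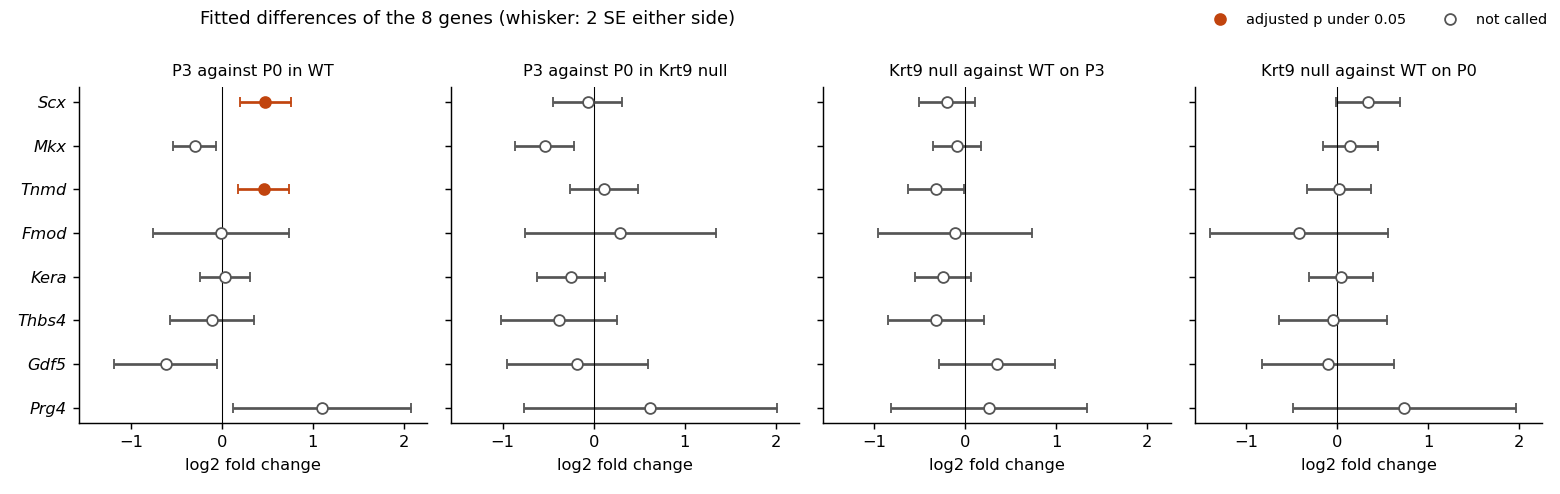
Log2 fold changes of the 8 genes in the comparisons named above each panel, with 2 SE either side. Filled points are called. Scx at 0.48 and Tnmd at 0.46 in WT are the only filled points, and Prg4 and Fmod have the widest whiskers.

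The clearest split of the tendon genes followed the column runs. In the second run against the first, Fmod and Thbs4 were lower and Tnmd and Kera higher, 4 of 8 called, 2 in each direction, where 23.2% of all genes were called, 9.68% higher and 13.5% lower. Fmod averaged 274 ± 68.4 CPM in the second run and 579.8 ± 103 CPM in the first (SD, n = 6 and 8), a log2 fold change of -1.01 ± 0.11 (SE, edgeR, adjusted p = 3.67e-05). Thbs4 averaged 203 ± 33.1 CPM in the second run and 328 ± 37.0 CPM in the first, at -0.63 ± 0.09 (SE, edgeR, adjusted p = 0.000164). For both genes every library of the second run was below every library of the first. The other genes overlapped between the runs, and the share of all genes without overlap was not computed. Kera was higher by 0.32 ± 0.07 (SE, edgeR, adjusted p = 0.00319) and Tnmd by 0.32 ± 0.07 (SE, edgeR, adjusted p = 0.00461), with overlap between the runs. Scx, Mkx, Gdf5 and Prg4 were not called, at -0.17, -0.02, -0.39 and -0.51. Without the 4th P0 WT library Scx was called lower too, at -0.27 (edgeR, adjusted p = 0.0449).

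This split had the same sign on both days for the 4 called genes. In the P3 libraries alone, 4 of 8 genes were called. In the 6 P0 libraries alone 0 of 8 were called, with Fmod at -0.999 (edgeR, adjusted p = 0.0525) and Thbs4 at -0.65 (edgeR, adjusted p = 0.175). The runs were noticed in these data, and the cause of the split was not tested.

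The difference between the column runs went with the base composition of transcripts over all genes, but only in part over the 8. Transcript GC content was 53.7% for Fmod and 53.9% for Thbs4, against 43.0% for Tnmd and 40.7% for Kera. Over 15542 genes, the log2 fold change between the runs had a correlation of -0.376 with GC content. Genes of 40% to 45% GC had a median of 0.16 and genes of 50% to 55% a median of -0.09, so Fmod and Thbs4 lay further from 0 than the median gene of their GC class. Scx, at 61.3% GC, lay at -0.17, while the median of its class was -0.34. Mkx, whose GC content of 43.2% is close to that of Tnmd, lay at -0.02, while the median of their class was 0.16. Prg4, at 47.8% GC, lay at -0.51 and the median of its class was 0.04, and Gdf5, at 56.6% GC, lay at -0.39 and the median of its class was -0.20. Tissue markers differed too: the summed dermal fibroblast markers were 1473 to 1675 CPM in the second run and 1117 to 1377 CPM in the first. Of these markers 5 of 8 were called higher, where 9.68% of all genes were. Of the endothelium markers 5 of 8 were called lower, of the osteoblast markers 3 of 8, of the Schwann cell markers 2 of 6, of the muscle markers 3 of 10, of the cartilage markers 2 of 10, of the epidermis markers 1 of 10 and of the red cell markers 0 of 7, where 13.5% of all genes were called lower. Their part in the split was not tested.

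**Figure D3:**
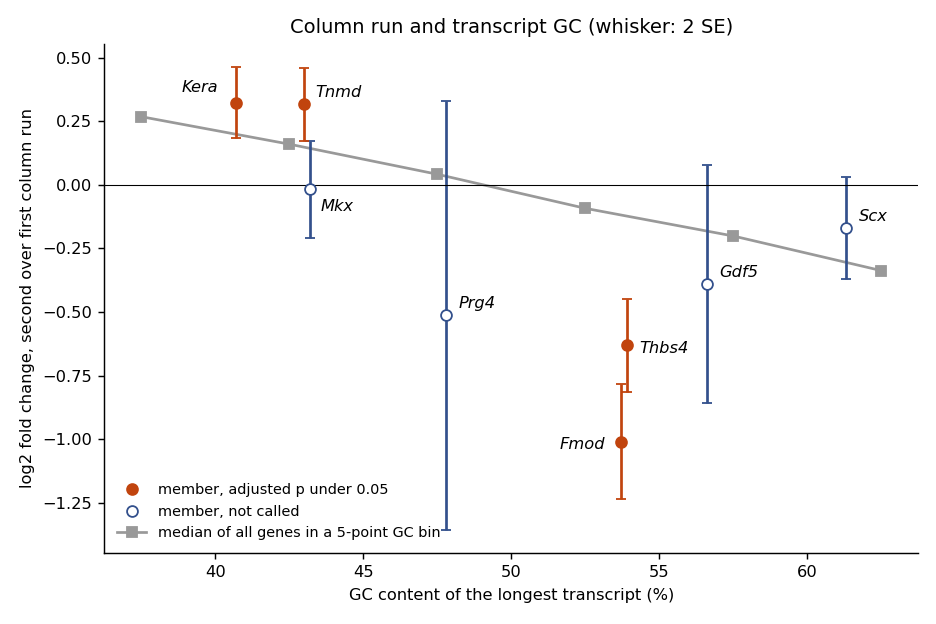
Log2 fold change between the second and the first column run (vertical, 2 SE either side) against transcript GC content in percent (horizontal) for the 8 genes, with the median of all genes in each 5-point GC bin as grey squares. Fmod and Thbs4 lie below the grey line, and Kera and Tnmd above it.

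Among themselves, the genes formed 2 pairs after group means were taken out. Fmod and Thbs4 had a correlation of 0.936 over the 14 libraries, and Tnmd and Kera one of 0.912. Fmod ran against Tnmd at -0.748 and against Kera at -0.758. Scx and Tnmd, though both higher on P3 in WT, had a correlation of -0.349 once group means were removed. These are descriptions over libraries that share the column runs, and the ratio of Thbs4 to Tnmd on the log2 scale ran from -1.24 to -0.69 in the second run and from -0.30 to 0.41 in the first.

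The 250 bases before the start are shown for Fmod, Thbs4, Tnmd and Kera, whose RefSeq (GRCm38.p6) promoters were at hand. Those of Scx, Mkx, Gdf5 and Prg4 were not at hand. The motif CANNTG, the E-box that scleraxis and other basic helix-loop-helix factors bind and which reads the same pattern on both strands, is in capitals. The Fmod promoter is at chr1:134037004-134037253 on the plus strand and the Thbs4 promoter at chr13:92794819-92795068 on the minus strand, each with 1 match. Those of Tnmd at chrX:133850758-133851007 and Kera at chr10:97606955-97607204, both on the plus strand, have 0 matches. At least 1 match was found in 66.2% of 32851 promoters of the same length, which is a description of these letters only.
Fmod: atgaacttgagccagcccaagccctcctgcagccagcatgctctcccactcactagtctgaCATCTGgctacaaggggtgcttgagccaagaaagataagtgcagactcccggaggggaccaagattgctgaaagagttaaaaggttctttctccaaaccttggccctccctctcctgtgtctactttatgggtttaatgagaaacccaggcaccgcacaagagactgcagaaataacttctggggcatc
Thbs4: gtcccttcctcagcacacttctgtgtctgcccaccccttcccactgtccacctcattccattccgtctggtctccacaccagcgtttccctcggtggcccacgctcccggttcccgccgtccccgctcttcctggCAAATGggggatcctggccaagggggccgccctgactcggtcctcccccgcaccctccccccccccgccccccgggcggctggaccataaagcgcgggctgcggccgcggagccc
Tnmd: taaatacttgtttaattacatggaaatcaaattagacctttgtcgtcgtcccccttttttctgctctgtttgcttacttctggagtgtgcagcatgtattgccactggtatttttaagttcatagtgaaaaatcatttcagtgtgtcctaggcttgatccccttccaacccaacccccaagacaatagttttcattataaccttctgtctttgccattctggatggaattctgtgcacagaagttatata
Kera: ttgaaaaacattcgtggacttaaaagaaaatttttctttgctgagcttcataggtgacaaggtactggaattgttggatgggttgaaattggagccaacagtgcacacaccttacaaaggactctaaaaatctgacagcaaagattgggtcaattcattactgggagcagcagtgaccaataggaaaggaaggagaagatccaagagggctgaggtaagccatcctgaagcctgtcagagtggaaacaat

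The genes most like each of the 8 over the 14 libraries were found among 14102 genes by the correlation of log2(CPM + 1). Fmod was most like Itga11, a collagen-binding integrin subunit, at 0.967, Mmp14, a membrane-bound matrix protease, at 0.965 and Erc1 at 0.963. Thbs4 was most like Nav1 at 0.962, and then Spry4 and Dchs1 at 0.961 each. Prg4 was most like B3gnt8, a glycosyltransferase, at 0.918, Chad, the cartilage matrix protein chondroadherin, at 0.908 and Tmem229a at 0.907. Scx was most like Camk2n1 at 0.947 and Tnmd most like Taf9b at 0.905. Mkx, Kera and Gdf5 had Plekhh2 at 0.905, Tspan6 at 0.906 and Yars at 0.841. Less group means, Prg4 and Chad had 0.932, and Gdf5 and Yars 0.805. The libraries share the column runs, by which Fmod and Thbs4 split with no overlap. The part of the runs in these correlations was not tested.

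Among the wider tendon, joint and growth factor genes, more were called lower than higher on P3 in WT. Of 84 such genes, each counted once and the 8 left out, 2 were called higher and 13 lower. The share in both directions, 17.9% beside 16.6% of all genes, was near the background. By direction it was not, since 8.49% of all genes were called higher and 8.07% lower. The median log2 fold change of the 84 genes was -0.30, beside -0.01 over all genes. Between the days in Krt9 null paws 0 of the 84 were called, and 0 in each comparison of the genotypes. In the second column run against the first, 8 were higher and 42 lower, 59.5% in all. Over all genes 23.2% were called between the runs, 9.68% higher and 13.5% lower. The day differences of these wider genes come from the fit with no term for the column run. The part of the runs in them was not tested.

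Between P0 and P3 in WT, 8.07% of all genes were called lower. Of 16 other tendon and ligament genes, 1 fell and 15 were not called. It was Thbs2, a thrombospondin of connective tissue, at 442 ± 57.5 CPM in P3 WT and 661 ± 89.5 CPM in P0 WT paws (SD), -0.59 on the log2 scale (edgeR, adjusted p = 0.0127). The median of the list, which holds the main tendon collagens, was 0.00. By column run 3 of the 16 were higher and 11 lower, where 9.68% of all genes were called higher and 13.5% lower. Among those lower were Col5a1 at -0.94 (edgeR, adjusted p = 3.6e-06) and Col12a1 at -0.81 (edgeR, adjusted p = 1.76e-05), collagens that regulate fibril growth. Aspn (asporin) was higher by 0.77 (edgeR, adjusted p = 1.57e-05).

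Of 10 other tendon transcription factors, 2 fell and 8 were not called, where 8.07% of all genes were called lower. Tcf12, which encodes a partner of basic helix-loop-helix factors, was at 156 ± 4.16 CPM in P3 WT and 199.6 ± 7.69 CPM in P0 WT paws (SD), -0.35 on the log2 scale (edgeR, adjusted p = 0.0234). Gtf2ird1 fell by 0.38 on the log2 scale (edgeR, adjusted p = 0.0421). None of the 17 small leucine-rich proteoglycans, Fmod and Kera included, was called, and the most abundant, biglycan (Bgn) and decorin (Dcn), were at 0.01 and 0.32. Of the 5 thrombospondins, Thbs2 and Thbs1 fell, Thbs1 by 0.93 on the log2 scale (edgeR, adjusted p = 0.0207), and Thbs4, Thbs3 and Comp were not called.

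Joint genes moved in both directions in WT. Of 16 interzone and synovial lining genes, 2 rose, 3 fell and 11 were not called. Over all genes tested, 8.49% were called higher and 8.07% lower. Clic5, a chloride channel protein found in the synovial lining, was at 31.0 ± 7.80 CPM in P3 WT and 11.2 ± 1.93 CPM in P0 WT paws (SD), a log2 fold change of 1.45 ± 0.26 (SE, edgeR, adjusted p = 0.00363). Cd55, a complement regulator of lining fibroblasts, was at 102 ± 17.2 CPM in P3 WT and 61.2 ± 12.01 CPM in P0 WT paws, at 0.73 ± 0.15 (SE, edgeR, adjusted p = 0.00594). Wnt4, a Wnt ligand of the interzone that skin also expresses, fell, at 99.5 ± 9.88 CPM in P3 WT and 189.9 ± 65.1 CPM in P0 WT paws (edgeR, adjusted p = 0.00391).

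In the BMP pathway around Gdf5, 3 of 24 genes fell and none rose, where 8.07% of all genes tested were called lower. Of 8 ligands, Gdf5 included, 1 fell, Bmp2, at 24.8 ± 1.62 CPM in P3 WT and 42.8 ± 11.5 CPM in P0 WT paws (SD, edgeR, adjusted p = 0.00732). Among 6 receptors 1 fell, Bmpr1b, the type I receptor that binds GDF5 with high affinity. It was at 12.3 ± 2.18 CPM in P3 WT and 26.5 ± 4.26 CPM in P0 WT paws, a log2 fold change of -1.11 ± 0.16 (SE, edgeR, adjusted p = 0.00106). Of 7 inhibitors 1 fell, follistatin (Fst), by 0.42 on the log2 scale (edgeR, adjusted p = 0.0415), and of the 3 Id target genes none was called, with Id3 at 0.26 and Id2 at 0.05. Among 9 TGF-beta ligands, receptors and Smads 3 fell: Tgfbr3 by 0.65, Tgfbr1 by 0.40 and Tgfb2 by 0.51 on the log2 scale (edgeR, adjusted p = 0.00533, 0.0152 and 0.0473). TGF-beta signalling is known to induce Scx in mouse tendon progenitors. The plot of called shares by list shows these counts beside the background.

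**Figure D4:**
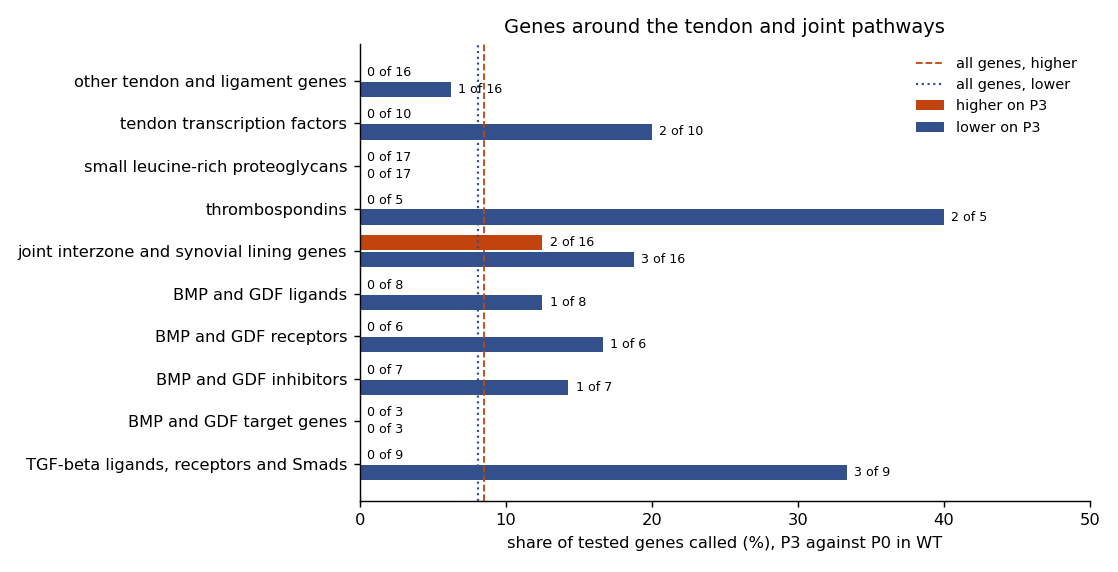
Share of the tested genes of each list called higher (orange) or lower (blue) on P3 than on P0 in WT, in percent, with the counts beside the bars and the share of all genes as dashed (higher, 8.49%) and dotted (lower, 8.07%) lines. Only the joint list has genes called higher, 2 of 16.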

How the data were processed

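Total RNA from 14 whole-paw samples was ribosomal RNA-depleted and sequenced, per the labels' protocols. The deposited table holds raw read counts per gene, as the authors made them, with no normalization. STAR 2.7.10a and featureCounts, with edgeR, limma and the build GRCm39, are credited in the submitters' processing notes. Strand setting and filters: not given in the sources used here. Symbols, exon lengths, GC content and overlaps came from a GENCODE annotation of GRCm38, which matched 52073 of 56691 rows. The only coordinates given are those of the promoters, in GRCm38.p6 and not in the build credited for the counts.

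Groups were taken from the labels. Genes passing filterByExpr (21619) entered edgeR 4.0.16 under R 4.3.3, with TMM scaling and a robust quasi-likelihood model of the 4 group means and labelled sex over all 14 libraries (9 residual degrees of freedom). Benjamini-Hochberg adjustment ran over all genes tested, and calls were made under 0.05. SE is the log2 fold change divided by the root of the F statistic, and intervals are 2 SE either side. The column run was tested in the same model. Alternatives used DESeq2 1.42.0 and limma 3.58.1. Tables and figures used Python 3.11.15.

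The 8 genes, the 10 pathway lists and 8 marker lists, and the tests were chosen with earlier results of these data known. Up to 3 called genes a list were named, those with the smallest adjusted p, or up to 2 of the most abundant where none was called. For each of the 8, up to 3 of the most alike genes were named, among genes of at least 1 CPM on average. The column run was examined after it was noticed. The litter numbers are digits read from the sample titles, which do not use the word litter. Whether a number that recurs on P0 and P3 marks the same litter is not stated. Libraries with the same number in different groups, 6 of the 7 pairs across the days, had correlations of their deviations from -0.1 to 0.206. Pairs with different numbers in different groups ran from -0.648 to 0.712, which encloses that range. The consensus correlation was -0.054. The procedure was tested on simulated data.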

Additional observations from a re-analysis of the deposited data

Results flagged for a closer look

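Tnmd in the 4th P0 WT library, at 371 CPM, stood far from the other 3 of its group, which had 277 to 286 CPM. Its gap to the nearest of them was 0.908 of the whole range of the group, above Dixon's critical value for 4 libraries. This was 1 of 16 groups of values examined, and chance flags about 1 in 20. The library belongs to the second column run, in which Tnmd was higher by 0.32 on the log2 scale, and its Xist level went against its label. Tnmd lies on the X chromosome. The part of either in the value was not tested.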

How the results depend on the processing

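The main count in WT between the days, 2 of 8 genes called, was 0 with the muscle marker level as a covariate. It was 0 with the 2 males of P3 WT litter number 2 summed and 0 with the litter number as a fixed replicate block. When each library was left out it ran from 0 to 2. It was 3 with no filter on low counts and 3 with only the groups compared in the fit, where Prg4 was called beside Scx and Tnmd. It was 2 with litter as a random block and under the other settings. The second column run alone is left aside here, since P0 WT is a single library in it. With the epidermis covariate the 2 genes were Mkx and Tnmd. With either block none of the 8 was called in the comparisons of the genotypes, the interaction or the days in Krt9 null paws. In Krt9 null paws between the days, 0 of 8 became 1 with no filter on low counts, 1 with the column run as a term, 1 by DESeq2 and 4 in the second column run alone. Krt9 null against WT on P0, 0 of 8 became 1 with no filter and 2 in the second run alone. On P3 it became 5 in the second run alone, and averaged over the days 1 with no filter and 4 in the second run alone. The second run alone left 1 residual degree of freedom and holds 1 P0 Krt9 null and 1 P0 WT library, so its counts that involve P0 rest on a single library of a genotype on that day. There Prg4 turned to -0.65 on P0, -0.63 on P3 and -0.64 averaged over the days, and the cause was not tested. Between the column runs, 4 of 8 became 0 in the P0 libraries alone, which are fewer. That alternative was chosen after seeing the data.

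Over all genes, the 3581 calls between the days in WT were 75 with the muscle covariate, 3 with the fixed litter block, 5570 with the column run as a term, 6501 in the first run alone and 1629 to 4332 with each library left out. The 166 in Krt9 null paws were 1692 with no filter, 1070 with the column run as a term, 1090 by DESeq2, 41 with no sex term, 48 with the epidermis covariate, 2 with the muscle covariate, 1 with only the groups compared, 6 in the first run alone, 0 with the fixed litter block and 5073 in the second run alone.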
